A study of Mus musculus with 50 samples.

Results

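The transcripts measured in the hippocampus of wild-type mice on the Agilent platform are described here by the brightness of their probes, without a comparison of genotypes. The members are the wild-type channels of 10 two-color arrays, 10 of the 20 channels of these arrays, in a series of 50 samples on 5 platforms. Each array carried RNA of 1 wild-type (WT) and 1 transgenic (TG) mouse. The WT channel is the green one (Cy3) where the title lists WT first and the red one (Cy5) where it lists TG first, which gave 5 Cy3 channels and 5 Cy5 channels. The WT animals were 5 male C57/BL6j mice, labelled 1, 3, 4, 5 and 6, and each was hybridized once in each dye. The TG animals on the other channels were males of the same background that over-expressed DCLK-short, a short form of doublecortin-like kinase. All animals lived singly in their cages in the week before dissection and both hippocampi of an animal were pooled, so a value is that of 1 animal's whole tissue. The age of the animals is not given in the sources used here.

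The hippocampus holds excitatory pyramidal neurons in the fields CA1, CA2 and CA3 and granule neurons in the dentate gyrus, along with inhibitory interneurons, glia and vessels. It is known for its part in memory and for its dense receptors for corticosteroid hormones. A dissected hippocampus can also carry fragments of choroid plexus, meninges and the regions that lie against it. In such bulk RNA, fewer cells of a type and less RNA per cell cannot be told apart.

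The labels of arrays 1 to 5 may be exchanged with those of arrays 6 to 10. An earlier analysis of these data matched the exchanged order, and that match was not repeated here. The values below follow the labels, and values after the exchange are given beside the results that moved most. Of the medians of 59 gene lists, 1 moved by over 5 percentile points, that of the liver genes. Neither order was borne out by the channels themselves. If the labels hold, both channels of a mouse should deviate together from the mean of their dye. As labelled, this correlation over 34127 probes was 0.34 for mouse 3, 0.10 for mouse 4, 0.22 for mouse 5 and 0.39 for mouse 6, but -0.09 for mouse 1. After the exchange it was 0.00 for mouse 1, 0.26 for mouse 3, 0.35 for mouse 4, 0.73 for mouse 5 and 0.08 for mouse 6. A channel could be closer to another mouse than to its own, as for mouse 4 as labelled, with up to 0.49 to mouse 3. The order of brightness was little touched, since the mean signals of genes as labelled and after the exchange had a rank correlation of 0.997. Of 16831 genes, 62 moved by more than 10 percentile points and 82 of the 100 brightest were shared.

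A signal is the mean pixel intensity of a spot on the log2 scale, minus the median of all 41174 probes of the same channel, so 0 is a probe of median brightness. Probes of a gene were averaged, then both channels of a mouse, and the mean ± SD over 5 mice is given. The signal percentile is the rank of a gene's mean among the 16831 named genes, whose median is 50 by construction. The median intensity of a WT channel was between 109 and 169.4 in Cy3 and between 77.9 and 102.6 in Cy5. Across genes, the rank correlation of channels was between 0.969 and 0.991 for the same mouse in the other dye and between 0.952 and 0.992 for different mice in the same dye. The precision of all values is bounded by the small number of arrays.

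Probes differ in how well they bind and label, so a percentile places a probe and is not an amount of transcript. How far this reaches was measured on the 5324 genes with several probes. The brightest and the dimmest probe of a gene differed by a median of 0.82 on the log2 scale, or 18.8 percentile points. The gap was over 1 on the log2 scale for 2240 of these genes (42.1%). Syt1, the calcium sensor of transmitter release, had 5 probes with signals of -0.35, 0.67, 2.08, 5.39 and 5.70. Camk2a, a kinase subunit of the postsynapse, had 1 probe at -0.30 and 1 at 5.34. A low percentile of a single gene in the following therefore does not show that its transcript was scarce, and levels of different genes are set side by side only as probe brightness.

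**Figure D1:**
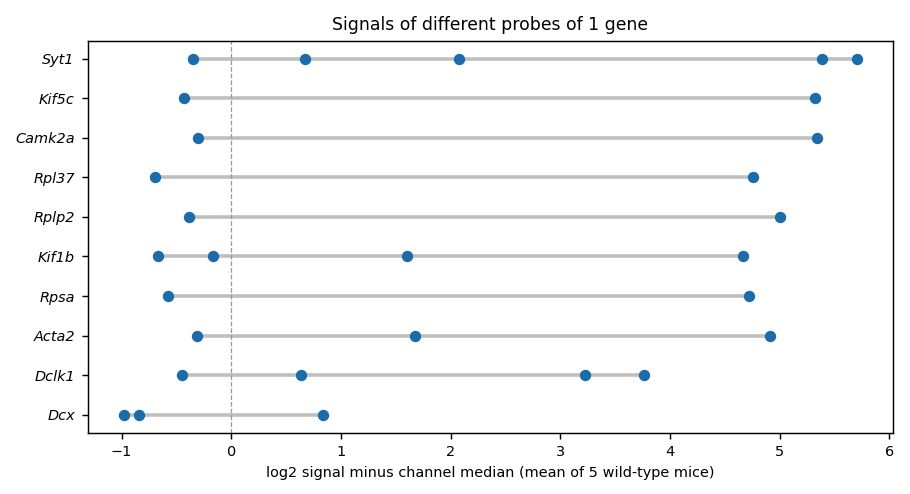
Signals of the different probes of 10 genes, as log2 signal minus the channel median (x axis, mean of 5 WT mice), with 1 point per probe and a grey line from the dimmest to the brightest probe. The probes of Syt1 lie between -0.35 and 5.70 and those of Dcx between -0.98 and 0.84.

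Most probes were above background. The detection limit of a channel was the 95th percentile of its 314 negative control spots, an intensity between 61.8 and 80.2 in Cy3 and between 40.0 and 44.4 in Cy5. In single channels, 36938 (89.7%) to 40230 (97.7%) of the probes were above it. In all 10 WT channels, 34127 probes had a value above it. With values marked as outliers by the scanner software counted as above, 35375 probes (85.9%) were above it in all 10. By gene, 15655 of 16831 (93.0%) had at least 1 such probe, and 18 genes had a probe above the limit in no channel. After the exchange the gene count was 15525. Named probes were above the limit more often (91.7% of 23377) than probes for which no gene name was found (78.3% of 17797). Protein-coding genes stood at 93.3% of 16507, and long noncoding RNAs at 78.7% of 221 with a median signal percentile of 22.3.

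The limit is a mild one. The median gene was 2.60 times above it, the gene at the 99th percentile 58.7 times and the brightest gene 744 times. In the dimmest decile of the genes 670 of 1683 were above it in all channels, and in each of the other deciles at least 1567. The spread between mice grew with brightness, from a median SD of 0.05 in the dimmest decile to 0.19 in the brightest decile on the log2 scale.

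The brightest gene by name was Insl5, a peptide hormone of the gut, whose single probe reached 8.55 ± 0.25. Its signal in mice 1, 3, 4, 5 and 6 was 8.44, 8.75, 8.48, 8.23 and 8.86. The probe was bright in all 5 mice. Fth1, the heavy chain of the iron store ferritin, followed at 8.31 ± 0.23. The next were Eef1a1, which carries tRNAs to the ribosome, at 7.73 ± 0.23, Calm2, a calmodulin gene, at 7.72 ± 0.17, Tmsb4x, which binds actin monomers, at 7.70 ± 0.38, and the ubiquitin gene Ubb at 7.69 ± 0.21. The seventh was the pseudogene Magea7-ps, also by 1 probe, at 7.49 ± 0.29. Among the rest of the first 15 were Cpe, a carboxypeptidase that matures neuropeptides, the protease inhibitor Cst3, Ywhah, a 14-3-3 protein, the sodium pump subunit Atp1b1, the tubulin Tuba1a, Sparcl1, a matrix protein secreted by astrocytes, and the glycolytic enzyme Gapdh. These 7 had means between 6.83 and 7.38. None of the 15 was saturated in a WT channel.

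Glycolysis and the ribosome, which all cells use, stood highest of the 59 lists. The 16 genes of glycolysis had a median percentile of 99.5 and all were above the limit. Gapdh, Aldoa and Aldoc reached 6.83 ± 0.19, 6.64 ± 0.07 and 6.49 ± 0.25, and only Pfkp (87.4) and Hk1 (62.5) were outside the brightest decile. Hk1 encodes the hexokinase that brain tissue is known to use, and stood lowest. The 85 genes of the cytosolic ribosome had a median percentile of 98.3, with 84 above the limit and 72 in the brightest decile. Rplp1 (6.68 ± 0.57) and Rpl3 (6.16 ± 0.23) led, and the tissue-restricted paralogs Rpl3l (-0.54 ± 0.06) and Rpl39l (-0.94 ± 0.03, not above the limit in all channels) closed the list.

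The 80 genes of the respiratory chain and ATP synthase, the machinery of mitochondrial ATP, had a median percentile of 96.9, with 71 in the brightest decile. The lowest were isoforms known from other tissues, namely Cox8b at 33.2, Cox4i2 at 19.7 and Cox7b2 at 11.8. The same order was seen among the 37 subunits of the proteasome (median 94.1). Psmb4 and Psma1 stood at 98.2 and 97.3, the immunoproteasome subunits Psmb9 and Psmb8 at 32.7 and 30.6, and the thymic subunit Psmb11 at 10.9. In the 16 tubulins (median 95.9), Tuba1a stood at 99.9, and Tubb6 at 9.70 was not above the limit in all channels. The 63 factors of translation initiation and elongation were more spread, with a median of 84.4 and 22 in the brightest decile.

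Neuronal genes stood between the ribosome and the respiratory chain. The 18 genes of neurons in general and of principal neurons had a median percentile of 97.6, all were above the limit and 15 were in the brightest decile. Snap25, a fusion protein of synaptic vesicles, had signals of 6.21, 6.01, 6.22, 6.04 and 6.53 in mice 1, 3, 4, 5 and 6. Olfm1 and Nrgn, a calmodulin-binding protein of dendrites, reached 5.76 ± 0.21 and 5.72 ± 0.55, the latter over 4 mice because both channels of mouse 5 were marked as outliers by the scanner software. The lowest of the list were the transcription factor Neurod2 (85.3), the splicing factor Rbfox3 (80.5), which is the antigen NeuN, and Neurod1 (77.9). The 20 genes of vesicle release had a median of 93.8. Rab3a stood at 99.4 and Rims1 at 40.8. The scaffolds of the postsynapse were dimmer (median 79.2), and their best known member Dlg4, or PSD-95, stood at 40.4.

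Marker lists of the fields of the hippocampus were mixed. For CA1 (7 genes, median 85.6), Mpped1 stood at 97.8, Wfs1 at 93.9, Man1a at 63.9 and the lowest gene of the list at 20.3. For CA2 (8 genes, median 80.02), Pcp4 stood at 96.2, Necab2 at 93.0 and Map3k15 at 10.9. For CA3 (8 genes, median 80.1), Nnat stood at 97.7, Bok at 93.1 and Iyd at 10.7. For dentate granule cells (8 genes, median 58.6), the calcium buffer Calb1 stood at 97.4, while Prox1, the factor that sets granule cell identity, stood at 43.7 and Dsp at 39.9. All 31 genes of these lists were above the limit in all channels, which is near the 93.0% of all genes, and none was in the dimmest decile.

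Interneurons are few among hippocampal cells. Several genes of their list were bright, and bulk RNA does not show which cells this signal came from. The 17 genes had a median percentile of 70.3. The peptides Cck and Sst stood at 99.6 and 99.1, and Gad1, which makes GABA, at 98.5. At the other end were the calcium buffer Pvalb at 44.7, Dlx5 at 44.3 and the serotonin channel Htr3a at 42.3. Pvalb had signals of 0.28, -0.07, 0.12, 0.35 and 0.39 in the 5 mice, near the channel median in every animal. In the 18 genes of neuropeptides (median 81.8), the granin Chgb led at 99.7 and the releasing hormone Trh closed at 34.5.

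Genes of glia covered the whole range. Of 16 astrocyte genes (median 89.6, all above the limit), Apoe, the lipid carrier, had 6.69 ± 0.32, Glul, which makes glutamine, 6.61 ± 0.60 and Aldoc 6.49 ± 0.25. Gfap, the filament protein by which astrocytes are usually stained, had only 0.33 ± 0.06 (percentile 48.2). Its signals of 0.24, 0.34, 0.37, 0.39 and 0.31 differed little between mice, so its low rank by 1 probe was stable. The main glutamate transporter Slc1a2 stood at 60.2 and its relative Slc1a3 at 97.8. Of 14 oligodendrocyte genes (median 91.9), the myelin gene Mbp reached 4.54 ± 0.43, and the lineage factor Olig2 stood lowest at 38.3. The 4 genes of oligodendrocyte precursors had a median of 56.1.

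Of 15 microglia genes (median 71.2, all above the limit), the lysosomal protease Ctss stood at 96.0, P2ry12, a receptor that marks resting microglia, stood at 87.9, and Itgam (26.3) and Ptprc (10.5) closed. Genes of endothelium and pericytes had a median of 45.7 (50.1 after the exchange). Among them Cldn5, a tight junction protein of brain vessels, stood at 89.96, and Pecam1 and Cdh5, both junction proteins, at 30.6 and 14.7. Of 5 blood genes 4 were above the limit in all channels. The globins Hbb-bt and Hba-a1 stood at 96.8 and 96.3. Alas2, an enzyme of heme synthesis in red cells, stood at 26.8, and the lowest gene of the list at 1.85. Of the 10 meningeal genes Dcn stood at 95.5, and the other 9 were between 29.2 and 80.5.

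**Figure D2:**
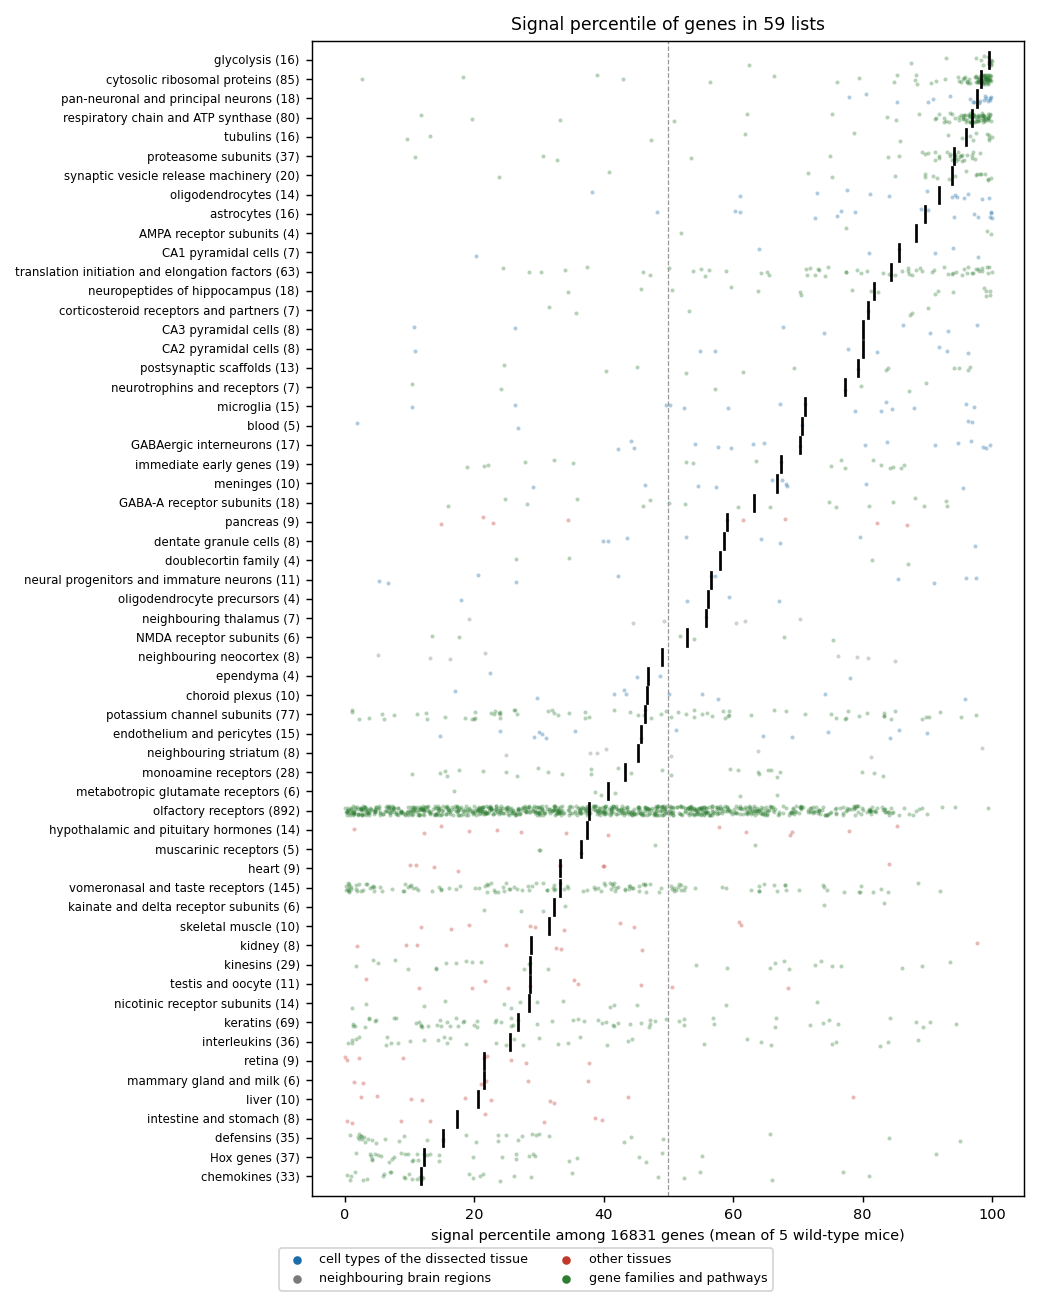
Signal percentile among 16831 genes (x axis, mean of 5 WT mice) of the members of 59 gene lists (y axis, list size in brackets), with 1 point per gene, a black bar at the median of the list and a dashed line at 50. Glycolysis, the ribosome and neuronal genes lie at the top with medians of 99.5, 98.3 and 97.6, and Hox genes and chemokines at the bottom with 12.3 and 11.7.

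Receptor families differed by subunit. Fast excitation runs through AMPA receptors, of which Gria2 had 6.08 ± 0.22 and Gria1 5.11 ± 0.15, with Gria3 at 1.55 ± 0.09 and Gria4 at 0.46 ± 0.07. Gria2 had signals of 6.05, 5.71, 6.11, 6.22 and 6.28 in the 5 mice. Its single probe cannot be ranked against Gria1, whose 2 probes gave 4.32 and 5.90. The NMDA receptors, which admit calcium during plasticity, were dimmer, with a median percentile of 52.9 over 6 genes. The obligatory subunit Grin1 stood at 75.4, Grin2b at 51.8, Grin2a at 17.7 and Grin3b at 13.5. The 6 kainate and delta subunits had a median of 32.4, led by Grik5 (83.4) and Grik4 (74.0).

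GABA-A receptors, the main inhibitory channels, had a median of 63.2 over 18 genes. Gabra5, a subunit known to be rich in the hippocampus, led at 93.0, with Gabrb1 at 92.9. Gabra6, known from cerebellar granule cells, was last at 16.04. The exchange of arrays mattered in this family, since Gabra2 would stand at 90.8 in place of 74.7 and Gabra6 at 31.5 in place of 16.04. The metabotropic glutamate receptors (6 genes), muscarinic receptors (5 genes), monoamine receptors (28 genes) and nicotinic subunits (14 genes) had medians of 40.7, 36.6, 43.3 and 28.5. In the last group Chrnb4 and Chrna3, subunits of autonomic ganglia, were not above the limit in all channels.

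The corticosteroid receptors themselves were dim by their probes. The glucocorticoid receptor Nr3c1 had -0.07 ± 0.10 (percentile 35.8) and the mineralocorticoid receptor Nr3c2 had -0.19 ± 0.07 (31.5). Their target Sgk1, a kinase, stood at 90.04, and Hsd11b1, which regenerates the active hormone, at 87.3. Of 19 immediate early genes, which neurons switch on with activity, Junb (86.3) and Nr4a1 (85.9) led, with Fos at 32.3 and Nr4a3 at 18.8. Among 7 neurotrophins and their receptors (median 77.3), Ntrk2, the receptor of BDNF, stood at 89.8, Bdnf at 79.7 and the lowest gene at 10.4.

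The doublecortin family binds microtubules, and Dclk1 is the gene from which the transgene of the other animals derives. Dclk2 had 2.22 ± 0.23 (percentile 87.1), Dclk1 1.79 ± 0.13 (81.4), Dclk3 -0.10 ± 0.05 (34.6) and Dcx, a marker of young neurons, -0.33 ± 0.03 (26.5). Dclk1 had signals of 1.77, 1.62, 1.73, 1.93 and 1.92 in the WT mice, and Dclk2 of 2.32, 1.95, 2.03, 2.49 and 2.34. The ranges of these 2 did not overlap, but the 4 probes of Dclk1 gave -0.45, 0.64, 3.22 and 3.76, so their order depends on the probe. Taking only the brightest probe of each gene moved the median percentile of the family from 58.0 to 70.0. The 3 probes of Dcx gave -0.98, -0.85 and 0.84, and the first was not above the limit. Other genes of progenitors and immature neurons ranged from Tubb2b at 97.5 and Nes at 96.0 to Top2a at 6.64 and Eomes at 5.34, a marker of intermediate progenitors.

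**Figure D3:**
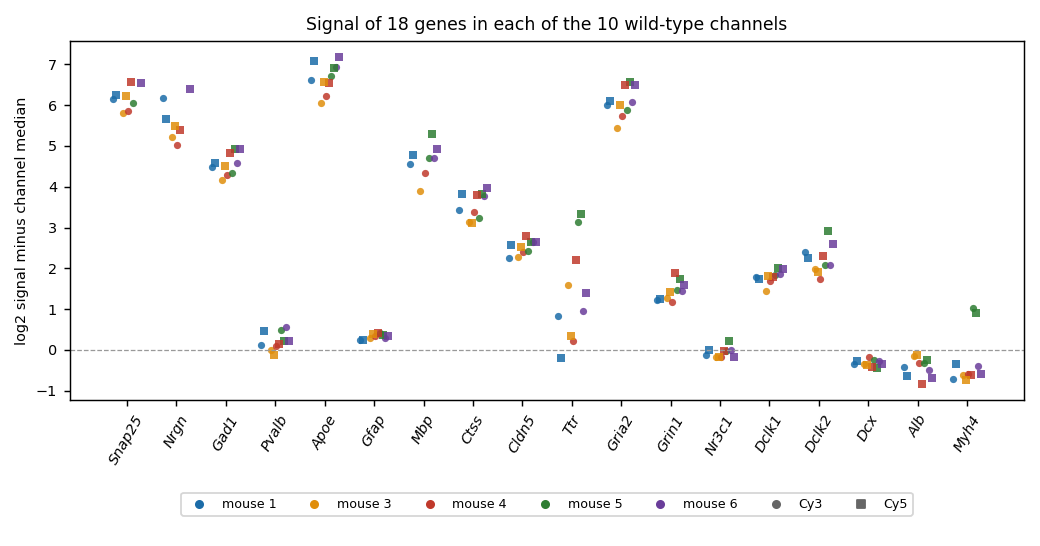
Log2 signal minus the channel median (y axis) of 18 genes in each of the 10 WT channels, with color for the mouse as labelled, circles for Cy3 and squares for Cy5, and without the values marked as outliers. Snap25, Apoe and Gria2 lie above 5 in every plotted channel, Gfap and Dcx differ little between channels, Myh4 is high in both channels of mouse 5, and Ttr is spread from -0.20 to 3.32.

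Lists named for other tissues were read against the same limit. Not all of their genes are foreign to brain, since they include neuropeptides of the hypothalamus and Pvalb, which also marks interneurons. Of these 94 genes (liver, muscle, heart, pancreas, testis, kidney, gut, retina, milk and hypothalamic or pituitary hormones), 83 (88.3%) were above the limit in all WT channels, against the background of 93.0% of all genes. By brightness they were apart from the markers of the dissected tissue, with a median percentile of 27.7 against 75.4 for 170 such markers. After the exchange these medians were 26.8 and 74.7. Of the 94 genes 18 were brighter than the median gene. Slc22a12, the urate transporter of the kidney, was the 1 gene of the 94 in the brightest decile, with 4.14 ± 0.32 and signals of 4.03, 4.65, 4.06, 3.78 and 4.19 in the 5 mice. Liver genes had a median of 20.6 (31.4 after the exchange), retinal genes 21.6 and milk genes 21.5, and the pancreatic genes stood highest with 59.01. Albumin (Alb) had -0.43 ± 0.20.

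Olfactory receptors, which sensory neurons of the nose use to detect odors, were taken as a large family with little known role in this tissue. Of 892 olfactory receptor genes 793 were above the limit in all WT channels, at a median percentile of 37.7 and a median of 1.96 times the limit. Their 95th percentile lay at a signal of 1.63, which is the percentile 78.9 of all genes. This level was added as a stricter limit after the data were seen, and 3557 genes (21.1%) were above it. The brightest was Olfr571 with 5.19 ± 0.14 (99.4), ahead of Olfr570 with 3.12 ± 0.07.

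The stricter limit is a cut on the same mean signals that gave the percentiles, so its counts restate them. Above it were 17 of 18 neuronal genes, 78 of 85 ribosomal, 74 of 80 respiratory chain and 15 of 16 glycolytic genes. Among glia, 10 of 14 oligodendrocyte, 9 of 16 astrocyte and 6 of 15 microglia genes were above it, and none of the 4 precursor genes. All 6 NMDA subunits and all 7 thalamic genes were below it, and so were all 10 liver and all 10 skeletal muscle genes. Of the 94 genes of other tissues 5 were above it, of which Slc22a12 was the brightest.

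**Figure D4:**
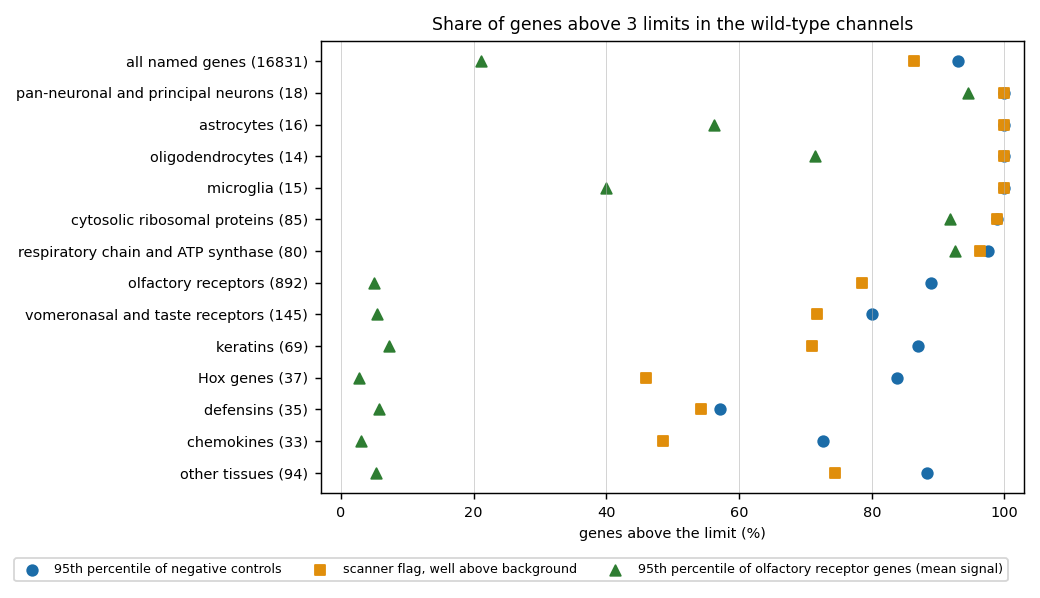
Share of genes (x axis, percent) of all named genes and of 13 groups (y axis, size in brackets) above 3 limits. Circles show the 95th percentile of the negative controls in all 10 WT channels, squares the flag of the scanner software in all 10, and triangles the 95th percentile of the olfactory receptor genes by the mean signal, which 21.1% of all genes and 94.4% of the neuronal genes passed. Squares cover circles where both are equal.

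By the flag of the scanner software for signals well above background, 14539 genes (86.4%) passed in all 10 channels, with 165 of 170 markers of the tissue and 70 of 94 genes of other tissues. The families at the bottom of the scale were Hox genes (median percentile 12.3, 17 of 37 flagged as present), which pattern the body axis, chemokines (11.7, 16 of 33), the antimicrobial defensins (15.3, 19 of 35) and interleukins (25.5, 23 of 36). Single members stood out from each. Hoxc4 had 2.68 ± 0.16, Cxcl14 1.76 ± 0.17, Defa3 3.29 ± 0.11 and Il27 2.37 ± 0.05. These were picked as the brightest of their lists. Defa3 is the mean of 2 probes at 0.82 and 5.75, which the SD between mice does not reflect.

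Genes of the regions that lie against the hippocampus were between both groups, with 22 of 23 above the limit and a median percentile of 50.4. The thalamic list (median 55.8, or 51.3 after the exchange) was led by Rora at 70.4. The neocortical list (49.0) was led by Lamp5 at 84.95, and Cux2 of upper cortical layers stood at 13.2. In the striatal list (45.4), Adora2a, an adenosine receptor, had 4.53 ± 0.32 and stood at 98.4. The dopamine receptor Drd1 and Ppp1r1b, 2 defining genes of striatal neurons, stood at 24.9 and 37.9.

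The ABI platform, with other probes and a chemiluminescent readout, measured RNA of 5 WT mice. They are labelled 1 to 5, so the sets of animals overlap only in part by number, and whether a number marks the same animal on both platforms was not tested. By the accession on which probes were designed, 1882 genes could be joined. Across these genes the rank correlation of the mean WT signals was 0.527 and Pearson's r of the log2 signals was 0.628. Of the brightest decile on Agilent, 62.4% were in the brightest decile on ABI. Genes are not independent replicates, and these values describe how far the order of brightness was shared by probes of different design. Single genes named above could differ widely or little. Snap25 stood at percentile 39.5 on ABI against 99.8 on Agilent, and Hba-a1 at 96.4 against 96.3.

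Differences between the 5 mice were tested in a linear model with mouse and dye (limma, F test over the mice), in which both channels of a mouse serve as its replicates. As both channels come from 1 RNA extract, the test measures labelling and hybridization error and not the error of repeated dissection. At a false discovery rate (FDR) of 0.1, 1233 of 41016 probes (3.01%) differed between mice. By gene, 626 of 16714 (3.75%) did, and 544 of these had mice 3 and 4 both below mice 1, 5 and 6, against 27.1% of all genes. Only 25 had both above, against 13.5% of all genes. The share of called genes rose with brightness to 18.2% in the brightest decile.

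Of the 59 lists, those of the ribosome and of the respiratory chain had the highest shares of called genes, 69.7% and 58.1%. Most called genes were in no list, since only 150 of the 626 were members of any. Of 76 tested genes of the cytosolic ribosome 53 differed between mice, and all 53 were lower in mice 3 and 4 than in the other 3 mice. Rps29, of the small subunit, had 5.86, 3.93, 3.90, 5.44 and 6.10 in mice 1, 3, 4, 5 and 6 (limma, adjusted p = 0.0032). Rps24 had 6.15, 4.91, 4.85, 5.81 and 6.38 (limma, adjusted p = 0.0047). Mice 3 and 4 were thus more than 1 log2 unit below mouse 6 in these genes, in both dyes. Of 74 tested genes of the respiratory chain 43 differed, of which 42 were lower in mice 3 and 4. The complex I genes Ndufb2 (4.27, 2.96, 2.67, 3.94 and 4.49) and Ndufc1 (3.96, 2.82, 2.60, 3.52 and 4.15) had the smallest p of the list (limma, adjusted p = 0.0032 each). The exception was Atp5e, which was also low in mouse 5.

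None of 15 tested glycolytic genes and none of 16 tested neuronal genes were called, and neither were the 4 genes of AMPA receptors. The share called was 3.75% of all genes and 18.2% in the brightest decile, where most glycolytic and neuronal genes stood. Lists this short cannot show that their own share was lower. Yet 13 of the 18 neuronal and 9 of the 16 glycolytic genes had mice 3 and 4 both below the others, with median differences of -0.32 and -0.23 on the log2 scale. This difference was -0.05 over all genes, -0.24 in the brightest decile and -0.83 in the ribosomal list. Of 36 proteasome genes 4 (11.1%) were called, namely Psmb1, Psmb6, Psma2 and Psma6. Of the 16 astrocyte genes, Glul (7.02, 5.91, 6.08, 6.71 and 7.31), S100b and Apoe were called, and of the 15 microglia genes Tmem119, Tyrobp, C1qc, Aif1 and C1qa. Of the 14 oligodendrocyte genes 3 were called, all lower in mice 3 and 4. Tmem119 was lowest in mouse 5, and the other 4 called microglia genes were lowest in mice 3 and 4. These names beyond the first 15 were picked after their values were seen. Cck, Npy and Pcp4 were also called and were lowest in mice 3 and 4. The gene with the smallest p, Atcay, rested on a single Cy3 value of 5.17 in mouse 3, whose Cy5 value was marked as an outlier, against 1.42 to 2.12 in the other channels.

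These calls depend on labels and scaling. After the exchange 310 genes were called, of which 14 were the same, with 1 of 78 ribosomal and none of 76 respiratory chain genes. The 4 channels in question are those with the lowest ribosomal signal of all 20, between 3.61 and 4.28 against 4.41 to 5.39 in the other 16 (median of the list). As labelled they are both channels of WT mice 3 and 4, and after the exchange they would be both channels of TG mice 2 and 3. Quantile normalization, which gives all channels 1 distribution, left 1 gene called (limma, F test), and of the probes 5112 had an unadjusted p below 0.05 in place of 5187. Without mouse 6, 54 genes were called, with 6 of the ribosome and 13 of the respiratory chain. RNA quality values of the animals were not analysed here, and their part in this difference was not tested.

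**Figure D5:**
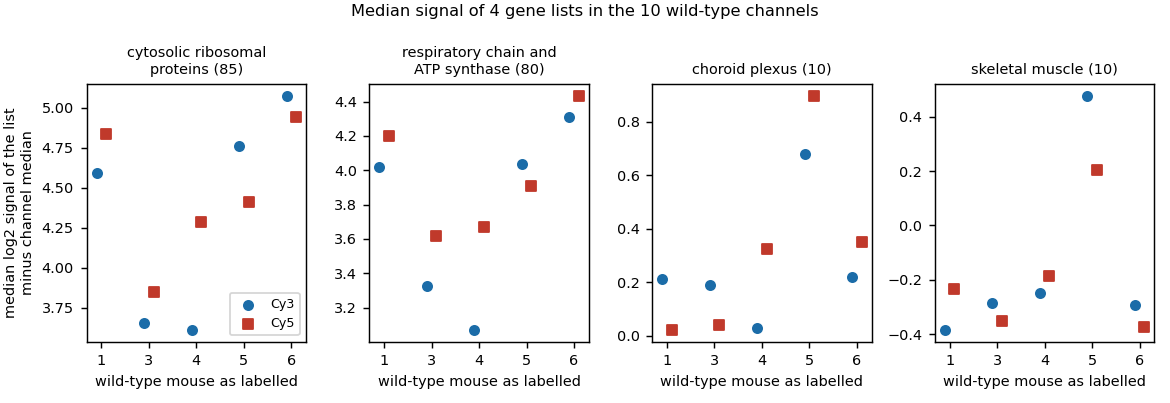
Median log2 signal minus the channel median (y axis) of 4 gene lists in the 10 WT channels by mouse as labelled (x axis), with circles for Cy3 and squares for Cy5. In the ribosomal and respiratory chain lists mice 3 and 4 lie below the others in both dyes, and in the choroid plexus and skeletal muscle lists mouse 5 lies above the others in both dyes.

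For 3 genes that were called between mice as labelled, but not after the exchange, the region around the start is shown from RefSeq (GRCm38.p6). It runs from 250 bases before to 50 after the start, read 5′ to 3′ on the strand of the gene. Whether these regions have a part in the differences between mice was not tested. Cox6a1 is a cytochrome oxidase subunit at chr5:115348909-115349208 on the minus strand, and Rps26 a ribosomal gene at chr10:128626457-128626756 on the minus strand. Capitals mark the letters CCGGAAG on either strand, the core of sites of ETS factors. Myh4 is the myosin of fast muscle at chr11:67237562-67237861 on the plus strand, with the letters TATAAA on either strand in capitals.
Cox6a1: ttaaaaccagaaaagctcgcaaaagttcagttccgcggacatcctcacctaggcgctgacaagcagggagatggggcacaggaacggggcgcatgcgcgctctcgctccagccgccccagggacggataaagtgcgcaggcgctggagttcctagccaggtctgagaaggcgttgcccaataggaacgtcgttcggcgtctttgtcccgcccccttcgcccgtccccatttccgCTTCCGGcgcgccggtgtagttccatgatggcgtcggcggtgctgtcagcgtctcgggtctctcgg
Rps26: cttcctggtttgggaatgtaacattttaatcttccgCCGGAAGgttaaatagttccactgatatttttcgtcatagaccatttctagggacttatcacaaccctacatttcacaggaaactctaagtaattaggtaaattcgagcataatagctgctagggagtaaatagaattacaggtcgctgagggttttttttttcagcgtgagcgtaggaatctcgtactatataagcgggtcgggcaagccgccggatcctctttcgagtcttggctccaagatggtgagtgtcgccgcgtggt
Myh4: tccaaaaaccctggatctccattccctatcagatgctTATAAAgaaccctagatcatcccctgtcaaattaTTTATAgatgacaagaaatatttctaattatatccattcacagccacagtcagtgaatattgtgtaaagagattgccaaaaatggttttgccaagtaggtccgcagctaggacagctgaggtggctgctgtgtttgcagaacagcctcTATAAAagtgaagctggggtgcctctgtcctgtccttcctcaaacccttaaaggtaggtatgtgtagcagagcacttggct

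In these windows, CCGGAAG occurred at 24.6% of the 65 respiratory chain genes with an entry, against 9.93% of all 27025 genes of the table. Among bright genes in general it was more frequent, with 21.0% and 21.3% in the eighth and the ninth decile of signal, so the share of the respiratory chain was near that of bright genes. It occurred at 32.3% of 31 proteasome genes and at 0 of 764 olfactory receptor genes. TATAAA occurred at 41.9% of the olfactory receptor genes and at 15.7% of all genes of the table. The median GC content of these windows was 57.3% in the respiratory chain, 35% in olfactory receptors and 52.8% over the table. For the ribosomal genes the share is not given, since only 63 of 85 (74.1%) had an entry. A run of letters in a window is not a binding site.

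Among the WT channels mouse 5 as labelled stood apart in genes of muscle and of choroid plexus, the tissue that secretes cerebrospinal fluid. Of 10 skeletal muscle genes 3 differed between mice, against 3.75% of all genes, and all 3 were highest in mouse 5. Myh4 had -0.53, -0.68, -0.61, 0.96 and -0.48 in mice 1, 3, 4, 5 and 6 (limma, adjusted p = 0.0032), and the skeletal actin Acta1 had 0.65, 0.50, 0.51, 1.42 and 0.84 (adjusted p = 0.0099). Tnnt3, a fast troponin, was the last of the 3. The median of the list was 0.48 in Cy3 and 0.20 in Cy5 for mouse 5, against -0.38 to -0.19 in the other 8 WT channels. None of the 3 was called without mouse 5.

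Of 10 choroid plexus genes 5 differed, against the same 3.75%, namely Sostdc1, Enpp2, Kcne2, Kl and Ttr, and all were highest in mouse 5. Enpp2, an enzyme that makes a signalling lipid, had 3.44, 2.59, 2.98, 4.66 and 3.64 (limma, adjusted p = 0.018). Ttr, the thyroid hormone carrier that this tissue secretes in bulk, had 0.32, 0.97, 1.21, 3.23 and 1.18 (adjusted p = 0.086). Its channels were less settled than these means, with 3.13 and 3.32 in mouse 5, but 1.60 and 0.35 in mouse 3 and 0.22 and 2.20 in mouse 4. The median of the list was 0.68 and 0.90 in mouse 5, but it was also 0.55, 0.58, 0.71 and 0.62 in the channels labelled TG on arrays 2, 4, 6 and 8. Over all 20 channels Ttr was between 1.60 and 3.54 in both channels of arrays 2, 4, 6 and 8 and between -0.49 and 1.41 in the other 12. Without mouse 5 none of these 5 genes was called, and after the exchange none of either list.

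As labelled, the brightness of many probes differed between the Cy5 and the Cy3 channels. Between the 5 Cy5 and the 5 Cy3 channels of WT RNA, 3346 of 41173 probes (8.13%) differed at an FDR of 0.1 (limma), 2567 brighter in Cy5 and 779 brighter in Cy3. The Cy3 channels lie on arrays 1 to 5 and the Cy5 channels on arrays 6 to 10, so dye and array set cannot be told apart. After the exchange no probe was called, and with quantile normalization none, although 5 channels of each dye were compared in each case. Without mouse 1, 12260 probes were called, and without mouse 4, 10. The percentiles above were hardly touched by dye, since with Cy3 channels alone the median of no list moved by more than 3.40 points, and with Cy5 channels alone the largest move was 5.67 points in the keratins.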

How the data were processed

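RNA of both hippocampi of each mouse was amplified with aminoallyl-UTP and coupled to Cy3 or Cy5. The authors scanned the Agilent arrays and deposited, per the file headers, spot intensities as means and medians over pixels, read with Feature Extraction 8.5.1.1, without background correction. For ABI, the signal intensity as deposited by the authors was not normalized. The submitters' processing notes name limma.

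Of 41534 spots that are no controls, spots of a probe were averaged, which gave 41174 probes. Values that the scanner software marked as outliers (92 to 270 spots in a WT channel) were left out, counted as above the limit, and a gene with several probes was used in a channel only where all of them remained. RefSeq names were found for 23377 probes through systematic name, accession or symbol. The signal was the log2 mean pixel intensity minus the channel median. Python 3.11.15, pandas 2.3.3, R 4.3.3 and limma 3.58.1 were used, with Benjamini-Hochberg adjustment over all probes or genes and an FDR of 0.1. The scripts were tested on simulated data.

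The numbers pair channels of a mouse by the labels, since each mouse was hybridized in both dyes. The check of this pairing stands in the results.

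The channels, the gene lists (59 lists with 2089 genes) and the rule for named genes were chosen with earlier results of these data known. The rule took the 15 brightest genes, the brightest and dimmest members of each list, the 15 genes with the smallest p between mice with called list members, 8 list genes with large gaps between probes, and the doublecortin family. Some genes under this rule are not reported here. Alternatives covered median pixels, normexp with an offset of 50, quantile normalization, single dyes, the brightest probe, stricter limits, the exchange, the dye term, and leaving out each mouse. Left unused were 85 columns of the tables of the whole series, those of TG mice on ABI and all of Illumina, whose chip positions the labels do not pair with mice. Platforms other than Agilent and ABI and the genotype comparison were not analysed here.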

Additional observations from a re-analysis of the deposited data

Results flagged for a closer look

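Of 78 values (lists or genes over the 5 mice), 5 had 1 mouse far from the other 4 by Dixon's criterion (a gap over 0.71 of the range). Among the 78, Cpe and Ywhah lacked a value in 1 mouse and could not be flagged. Chance gives about 1 in 20, so this count is near that of chance. Of the genes above the detection limit in all channels, 605 (3.86%) were past the same criterion. The skeletal muscle list had a median percentile of 49.8 in mouse 5 and 26.1 to 30.6 in the others. The choroid plexus list had 60.5 in mouse 5 and 42.5 to 45.9 in the others. The oligodendrocyte list had 93.2 in mouse 5 and 91.1 to 91.4 in the others. The pancreas list was lowest in mouse 5 with 52.1, against 57.8 to 59.6. The list of GABA-A receptor subunits was lowest in mouse 3 with 59.8, against 63.1 to 64.4.

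Liver genes were bright in 2 channels that the labels give to TG mice and that are outside the comparisons above. The median log2 signal of the 10 liver genes was 0.84 in the Cy3 channel labelled TG mouse 1 and 0.57 in the Cy5 channel labelled TG mouse 5, against -0.72 to -0.36 in the 10 WT channels. Alb had 1.87 and 2.00 in these channels, against -0.83 to -0.12 in the WT channels. By the labels they belong to different animals, and after the exchange both would be channels of WT mouse 1. The skeletal muscle list was also high in both channels labelled TG mouse 3, with 0.32 and 0.30, which would belong to WT mice 3 and 4 after the exchange. So neither order of the labels placed each pattern in both channels of single animals, and which order holds was not settled here.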

How the results depend on the processing

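The order of the medians of the 59 lists had rank correlations between 0.987 and 1.00 with that under each alternative, and 9 lists moved by over 5 points with the brightest probe. The largest move was that of the doublecortin family from 58.0 to 70.0 under this choice, and with the exchange that of the liver list to 31.4. For the genes of other tissues the median percentile of 27.7 became 26.8 after the exchange, 26.9 with Cy3 channels alone, 26.7 with the brightest probe and 26.3 to 27.9 without single mice. The count of genes above the limit, 15655, was between 14539 and 16619 under the other limits, but 3557 above the level of olfactory receptors. The count of probes that differ between mice, 1233, was 1 with quantile normalization, 725 with normexp, 776 at an FDR of 0.05, 245 without the dye term, 2264 with a trended and robust prior, and 498 to 2015 without single mice (498 without mouse 1, 499 without mouse 6 and 2015 without mouse 4). By gene, 626 became 310 after the exchange, 1 with quantile normalization, 354 with normexp, 136 without the dye term and 54 to 850 without single mice (54 without mouse 6 and 251 without mouse 3). Of ribosomal genes, 53 became 1 after the exchange, 0 with quantile normalization, 21 without the dye term and 6 to 61 without single mice (6 without mouse 6 and 33 without mouse 3). For the respiratory chain, 43 became 0, 0, 25 and 13 to 46 in the same order (13 without mouse 6). For the choroid plexus, 5 became 0 after the exchange, 0 with quantile normalization, 3 with normexp, 2 without the dye term and 0 to 5 without single mice (0 without mouse 5 and 2 without mouse 6), and for skeletal muscle 3 became 0, 0, 3, 1 and 0 to 3 (0 without mouse 5). The count of probes that differ between dyes, 3346, was 0 after the exchange, 0 with quantile normalization, 2 with normexp, 783 at an FDR of 0.05 and 10 to 12260 without single mice (12260 without mouse 1, 1020 without mouse 3, 10 without mouse 4, 11 without mouse 5 and 1530 without mouse 6). With the mouse number as a replicate block it was 4819. The cause of these changes was not tested. A scan date block could not be fitted, since all arrays share 1 date and each slide holds 1 array. Trended priors, gene level tests and the olfactory receptor limit were chosen after seeing the data. In the dimmest decile of genes, 670 of 1683 were above the limit in all channels, so ranks there are bounded by background.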
